A study of Mus musculus with 7 samples.

Results

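The 9 genes Rax, Crym, Dio2, Slco1c1, Gpr50, Col25a1, Lhx2, Adamts5 and Deptor are known markers of tanycytes. They were followed in the arcuate nucleus of mice on a high-fat diet through every probe that carries one of their symbols in the annotation of the array. That gave 14 probes of 25697, with 5 for Col25a1, 2 for Deptor and 1 for each other gene. The data are 4 samples from Dusp8-deficient mice and 3 from littermate controls, which the labels call biological replicates, all from male C57BL/6J animals aged 40 weeks. Both groups had been moved from chow to food with 45% of its energy as fat at an age of 8 to 10 weeks and stayed on it for 30 weeks. Each sample was read on 1 Illumina bead array. The sources used here do not say how the Dusp8 gene was disrupted or whether a sample pooled several mice. Arrays are named by their column headings, with ko for Dusp8-deficient and wt for control.

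Tanycytes are radial glia that line the floor and the lower walls of the third ventricle and send a long process into the arcuate nucleus or the median eminence. They carry hormones between the cerebrospinal fluid, the portal blood and the tissue, convert thyroid hormone locally, and include precursor cells. The 9 genes stand for these functions. Gpr50 is an orphan receptor related to the melatonin receptors, Dio2, Slco1c1 and Crym handle thyroid hormone, Rax and Lhx2 are homeodomain transcription factors, Col25a1 and Adamts5 act at the cell surface and in the matrix, and Deptor binds the mTOR kinase. Several are not confined to tanycytes. Slco1c1 is also a gene of brain endothelium, Crym and Deptor are also made by neurons, and Lhx2 is active in other neural tissue.

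Expression is given as the deposited signal in array units, and as a normalised log2 level for comparisons between groups. A probe counted as detected on an array when its deposited detection p was below 0.05, and it was tested when detected on at least 3 of the 7 arrays. Of the 14 probes, 11 passed, and they read 7 of the 9 genes. The remaining 3 probes, those of Dio2 and Adamts5 and 1 of Col25a1, were detected on no array. The 9 genes were therefore seen unevenly. Gpr50 and 1 Deptor probe were brighter than 73.1% and 73.8% of the tested probes, while the Rax probe exceeded only 17.9% of them. The broad markers of the tanycyte label Vim and Nes were read poorly as well. The Vim probe was detected on 1 of 7 arrays and both Nes probes on none, while the brighter Sox2 probe was detected on all 7, at 54 to 102 units.

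**Figure D1:**
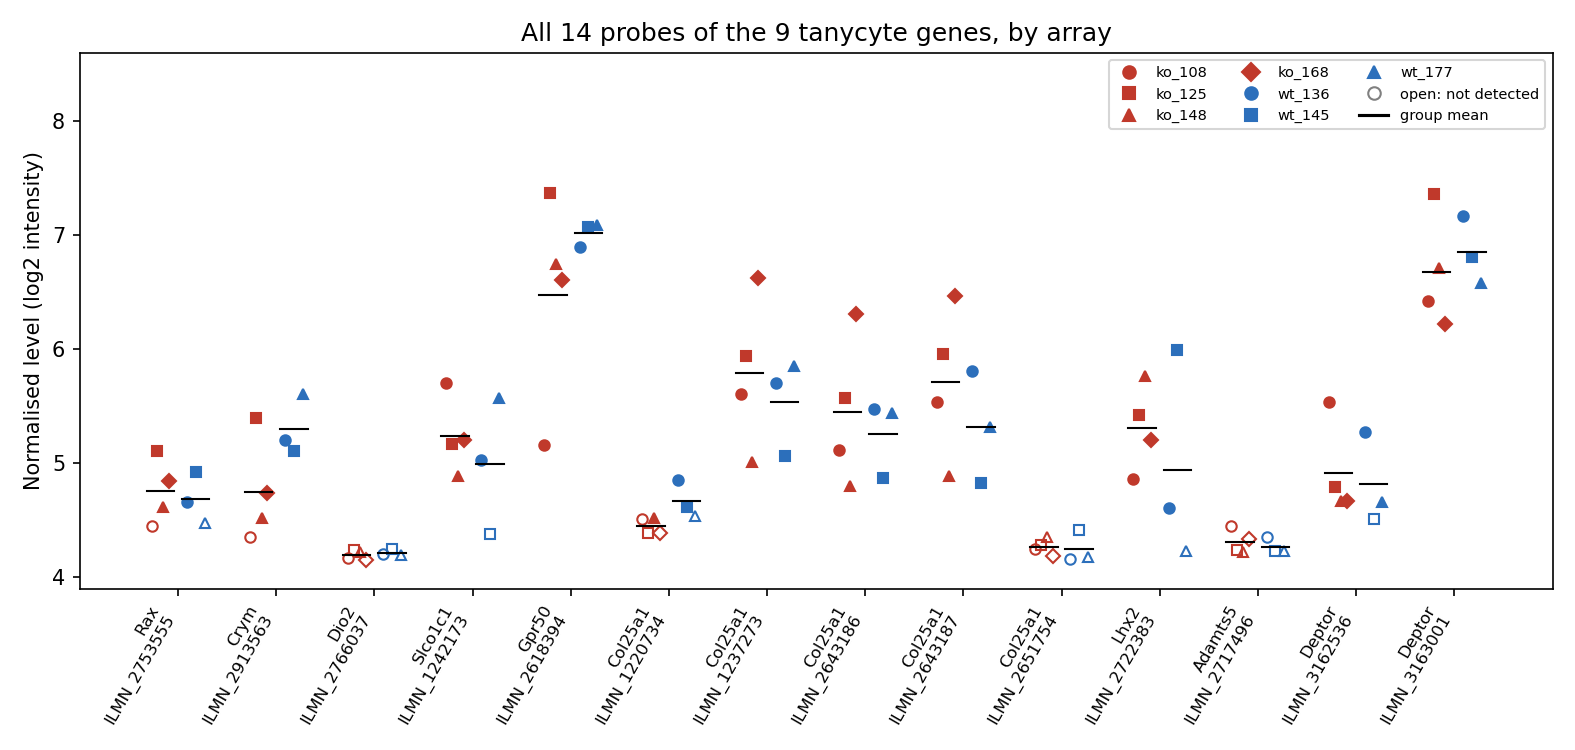
Normalised log2 intensity of all 14 probes on each array, with Dusp8-deficient arrays in red and control arrays in blue. Open symbols mark arrays on which a probe was not detected, black lines are group means. The Dio2 and Adamts5 probes lie at the floor on every array, and the Gpr50 value of ko_108 (5.16) lies below the 6 others (6.61 to 7.37).

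The array ko_108 stood apart from the other Dusp8-deficient arrays in mean signal, but lay close to the lowest control. Its mean signal per probe was 58.0 units, while ko_125, ko_148 and ko_168 had 73.4 to 74.9 and the controls 60.6 to 72.2. Results below are given with and without it where it mattered. Between 12295 and 13976 probes were detected per array, with 12749 on ko_108, more than on wt_145 (12620) or wt_177 (12295). Dusp8 itself was lower in each Dusp8-deficient array than in each control, with a log2 difference of -2.52 (SE 0.23, limma adjusted p = 0.00963).

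No tanycyte gene passed the test between the groups. None of the 11 tested probes reached an adjusted p under 0.05 (limma, lowest adjusted p = 0.996), where 0.00711% of all tested probes did, and that 1 probe was Dusp8. None had an unadjusted p under 0.05 either, against 4.81% of all tested probes. Of the 7 tested genes, read by their brightest probe, 4 were higher and 3 lower in the Dusp8-deficient mice, with a median log2 difference of 0.07 beside 0.00 (-0.0019) over all tested probes. Without ko_108 the median was 0.10 beside 0.0065, again with 4 higher and 3 lower. The 95% intervals on the log2 scale reached down to -1.52 (Gpr50) and up to 1.26 (Lhx2). An offset of 16 units is added before log2, so these differences understate those of dim probes.

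**Figure D2:**
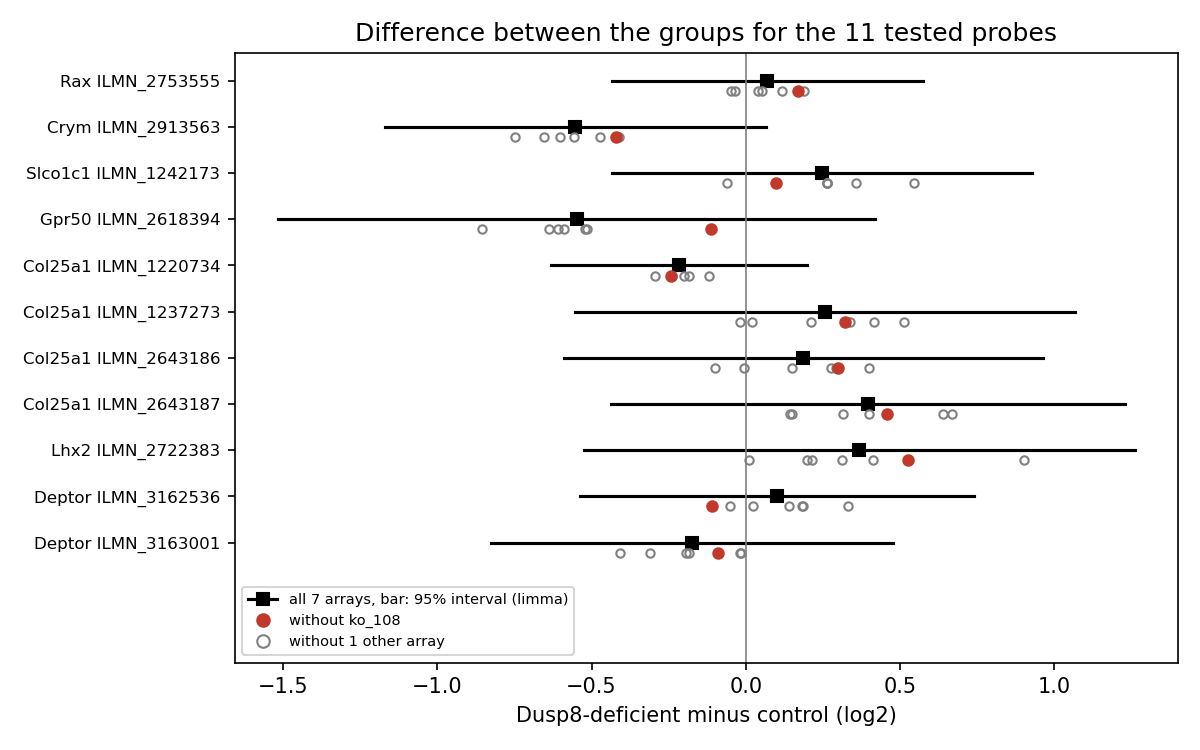
Dusp8-deficient minus control difference in log2 units for each of the 11 tested probes, with squares and 95% intervals from limma over 7 arrays. Circles show the difference with 1 array left out, in red for ko_108. All 11 intervals cross 0, and the Gpr50 difference moved from -0.55 to -0.11 when ko_108 was left out.

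Gpr50 was clearly expressed and differed most between animals. Its signal was 17 units in ko_108, 167 in ko_125, 101 in ko_148 and 78 in ko_168. In the controls it was 109 in wt_136, 116 in wt_145 and 107 in wt_177. The control values thus lay close together, while the Dusp8-deficient values reached both below and above them. Its log2 level averaged 6.47 ± 0.94 (SD, n = 4) in the Dusp8-deficient mice and 7.02 ± 0.11 (SD, n = 3) in the controls. The difference of -0.55 (95% interval -1.52 to 0.42, limma adjusted p = 0.996, exact permutation p = 0.486, two-sided) did not pass, and was -0.11 without ko_108. The spread of Gpr50 within the groups, an SD of 0.73 log2 units, was larger than that of 96.5% of the tested probes, whose median was 0.34. This SD includes ko_108, at 5.16 against 6.61 to 7.37 on the other arrays, and was not computed without it.

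The melatonin receptors proper and the pars tuberalis, the strip of pituitary tissue below the median eminence that answers to melatonin, gave no call. The Mtnr1b probe was detected on no array and the Mtnr1a probe on 1. Of 11 listed genes, 5 were tested, of which 3 were higher and 2 lower and none passed, with a median log2 difference of 0.21. Tshb, the beta subunit of thyrotropin, which the pars tuberalis uses to signal to tanycytes, read -5 units in ko_108, 83 in ko_125, 39 in ko_148 and 135 in ko_168. Its control signals were 6, 7 and 2 units. The arrays ko_125, ko_148 and ko_168 lay well above the controls, and ko_108 lay below them. No control array detected Tshb. Its log2 difference between the group means was 1.42 (SE 0.58, limma adjusted p = 0.996), and 2.00 without ko_108 (limma adjusted p = 0.953). Neither passed. The mean behind the difference of 1.42 includes ko_108, so that value does not describe every Dusp8-deficient array, and no minimum fold can be given. Pomc, an arcuate and pituitary prohormone, had a log2 difference of -0.64 (SE 0.41), which ranged from -1.10 without wt_145 to -0.10 without wt_177. Its signals were low, at 5 to 19 units in Dusp8-deficient mice and 5 to 62 in the controls. Pomc was detected on 3 of 4 Dusp8-deficient arrays and 2 of 3 controls.

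Of the thyroid hormone genes among the 9, Dio2, the deiodinase that turns thyroxine into active triiodothyronine, could not be measured. Its single probe gave -7 to -1 units in Dusp8-deficient mice and -4 to -1 in the controls, and was not above background on any array. No level or fold can be given for it. Its promoter is shown because Dio2 is the best-known tanycyte enzyme and because that sequence holds short motifs tied to cyclic AMP signalling and to homeodomain proteins such as Rax and Lhx2. The window runs from 250 bases before the start of the gene to 50 after it (RefSeq, GRCm38.p6, chr12:90738989-90739288, minus strand, written 5′ to 3′ along the gene).
Dio2: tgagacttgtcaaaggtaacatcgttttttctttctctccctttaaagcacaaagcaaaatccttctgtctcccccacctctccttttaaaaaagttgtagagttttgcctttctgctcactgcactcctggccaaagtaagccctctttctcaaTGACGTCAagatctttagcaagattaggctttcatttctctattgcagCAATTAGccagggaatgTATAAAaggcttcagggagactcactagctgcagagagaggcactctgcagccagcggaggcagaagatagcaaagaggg
Capitals mark 3 motifs that do not overlap and that were searched on both strands. They are TGACGTCA, the palindrome bound by CREB, which begins 95 bases before the start, CAATTAG, a homeodomain-type sequence, at 47 bases, and the TATA sequence TATAAA at 30 bases. Of 32851 promoter windows of this length, 1.79% hold TGACGTCA, 1.98% hold CAATTAG and 13.6% hold TATAAA. Windows of Slco1c1, Gpr50, Col25a1 and Lhx2 (with 2 starts) were searched too. Only that of Slco1c1 held any of the 3, TATAAA, which begins 2 bases after the start and not before it. Rax, Crym, Adamts5 and Deptor were not searched. These matches are a description of the sequence.

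Crym encodes mu-crystallin, which binds triiodothyronine inside the cell. Its signal was 2 units in ko_108, 34 in ko_125, 7 in ko_148 and 9 in ko_168, and 22 in wt_136, 18 in wt_145 and 29 in wt_177. The arrays ko_108, ko_148 and ko_168 lay below every control and ko_125 lay above 2 of the 3 on the log2 scale. Crym averaged 4.75 ± 0.46 (SD, n = 4) in the Dusp8-deficient mice and 5.30 ± 0.27 (SD, n = 3) in the controls, a difference of -0.55 (SE 0.28, limma adjusted p = 0.996, exact permutation p = 0.143, two-sided). Crym kept the lower direction under all alternatives run, from -0.75 without ko_125 to -0.26 with a larger background offset, and never passed. It had the smallest unadjusted p of the 11 probes, 0.0736 in limma across all probes. Markers of neurons, which also make Crym, split into 6 higher and 6 lower of 12 tested, Crym included, with a median of -0.05. Without ko_108 that split was 2 higher and 10 lower, with a median of -0.13.

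Slco1c1 encodes a transporter that carries thyroxine across the blood-brain barrier and into tanycytes. Its signal was 32 units in ko_108, 27 in ko_125, 15 in ko_148 and 18 in ko_168, and 18 in wt_136, 3 in wt_145 and 28 in wt_177. The groups overlapped, and wt_145 alone was not detected. Slco1c1 averaged 5.24 ± 0.34 (SD, n = 4) against a control level of 4.99 ± 0.60 (SD, n = 3), a difference of 0.25 (SE 0.31, limma adjusted p = 0.996) that turned to -0.06 without wt_145. In contrast to Gpr50, Slco1c1 was at its highest in ko_108. Endothelial and mural markers, a list that holds Slco1c1, also had their highest mean there, 0.29 log2 units above their average over the arrays. Of those 10 tested genes, 5 were higher and 5 lower in the Dusp8-deficient mice, none passed, and Pecam1 read -0.42 (SE 0.21). Flt1, a receptor of vascular growth factor, read 0.70 (SE 0.43), but 0.10 without wt_177, where its signal was 3 units, and 1.19 without wt_136. Without ko_108 the list had 6 higher and 4 lower. Summed over the list, signals came to 1284 to 1782 units in Dusp8-deficient and 1256 to 1434 in control arrays, and the part of vessels in the Slco1c1 values was not tested.

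The other genes of thyroid hormone transport, conversion and response did not pass either. Of 24 listed, 16 were tested, with 5 higher and 11 lower, and a median of -0.10. Without ko_108 the split was 7 higher and 9 lower, with a median of -0.016. The deiodinases Dio1 and Dio3 were not tested, and Dio1 was detected on no array. Slc7a5 is a light chain of the amino acid transporter that also moves thyroid hormones. Signals of Slc7a5 were 59 to 88 units in Dusp8-deficient mice and 33 to 49 in the controls. The log2 difference was 0.57 (SE 0.25), but on that scale the groups overlapped, with wt_177 (6.17) above ko_125 (6.00). Slc3a2, the heavy chain of this transporter, read -0.26 (SE 0.22), or -0.16 without ko_125. The receptor partner Rxrb read 0.53 (SE 0.25), or 0.33 without wt_177. The thyroid hormone receptor gene Thrb read -0.31 (SE 0.27), from -0.61 without wt_136 to -0.15 without wt_145. Klf9, a target of the receptor in brain, read 0.27 (SE 0.20), or 0.14 without wt_145. All 5 had an adjusted p of 0.996 in limma.

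Rax, the homeodomain factor by which tanycytes are most often recognised, was near the limit of detection. Its signal was 4 units in ko_108, 25 in ko_125, 9 in ko_148 and 11 in ko_168, and 10 in wt_136, 14 in wt_145 and 5 in wt_177. It was detected on 3 of 4 Dusp8-deficient arrays and 2 of 3 controls, and the groups overlapped throughout. The log2 means of 4.75 ± 0.29 (SD, n = 4) and 4.68 ± 0.23 (SD, n = 3) differed by 0.07 (95% interval -0.43 to 0.57, limma adjusted p = 0.996). The sign turned when ko_125 (-0.05) or wt_177 (-0.03) was left out. With an offset of 50 in place of 16 the difference was 0.03, and at signals this low the interval sets no limit on the fold change of Rax.

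Lhx2, a LIM-homeodomain factor that acts with Rax in tanycyte development, varied widely in both groups. Its signal was 11 units in ko_108, 35 in ko_125, 42 in ko_148 and 18 in ko_168, and 9 in wt_136, 47 in wt_145 and -2 in wt_177. The controls held both the highest and the lowest value, and wt_177 was not detected. Lhx2 averaged 5.31 ± 0.38 (SD, n = 4) against a control level of 4.94 ± 0.93 (SD, n = 3), a difference of 0.37 (SE 0.40, limma adjusted p = 0.996) that ran from 0.01 without wt_177 to 0.90 without wt_145. Its within-group SD of 0.66 was larger than that of 93.8% of the tested probes.

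Of 18 other transcription factors of the hypothalamus and the ventricular zone, 14 were tested. They split into 6 higher and 8 lower, with a median of -0.16 and no call. Without ko_108 they split into 4 and 10, and the median shrank to -0.08. Nkx2-1, which specifies the ventral hypothalamus and stays on in tanycytes, had 121 to 373 units in Dusp8-deficient mice, with ko_108 lowest, and 341 to 511 in the controls, and differed by -0.67 (SE 0.30) log2 units, or -0.42 without ko_108. Sox9, a glial factor, read -0.39 (SE 0.24), from -0.60 without wt_177 to -0.21 without wt_145. Neither passed (limma adjusted p = 0.996 for both).

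Col25a1 encodes a transmembrane collagen whose shed part was first found in amyloid plaques. It was the member with most probes, and they did not read alike. The annotation ties its probes to 1 of 2 transcript records, called A and B here. The 3 detected probes of transcript record B tracked each other closely over the 7 arrays, with Pearson's r of 0.93 to 0.98 between them as a description. The brightest of them, ILMN_1237273, gave 29 units in ko_108, 56 in ko_125, 18 in ko_148 and 79 in ko_168, and 38 in wt_136, 17 in wt_145 and 37 in wt_177. On these probes ko_168 was always the highest array and the lowest was ko_148 or wt_145. The log2 differences were 0.26 (SE 0.36), 0.19 (SE 0.35) and 0.40 (SE 0.37), none passing. The differences of 0.26 and 0.19 turned to -0.02 and -0.10 without ko_168, and the second also to -0.0066 without wt_145. Another probe of record B, ILMN_2651754, was detected on no array.

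The 1 probe of transcript record A, ILMN_1220734, differed in direction. It gave 5, 5, 7 and 3 units in ko_108, ko_125, ko_148 and ko_168, and 14, 8 and 6 units in wt_136, wt_145 and wt_177. Each Dusp8-deficient array was below each control on the log2 scale, but the nearest values were 4.52 and 4.53, and the probe was detected on only 1 Dusp8-deficient array and 2 controls. Its difference of -0.22 (95% interval -0.63 to 0.20) had an exact permutation p of 0.0286 (two-sided), the smallest the arrays allow, and a limma adjusted p of 0.996. It was the only one of the 11 tested probes whose groups did not overlap, where 5.57% of all tested probes did not, 2.79% with the Dusp8-deficient arrays lower. Whether the probes of both records read different transcripts in this tissue was not tested.

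**Figure D3:**
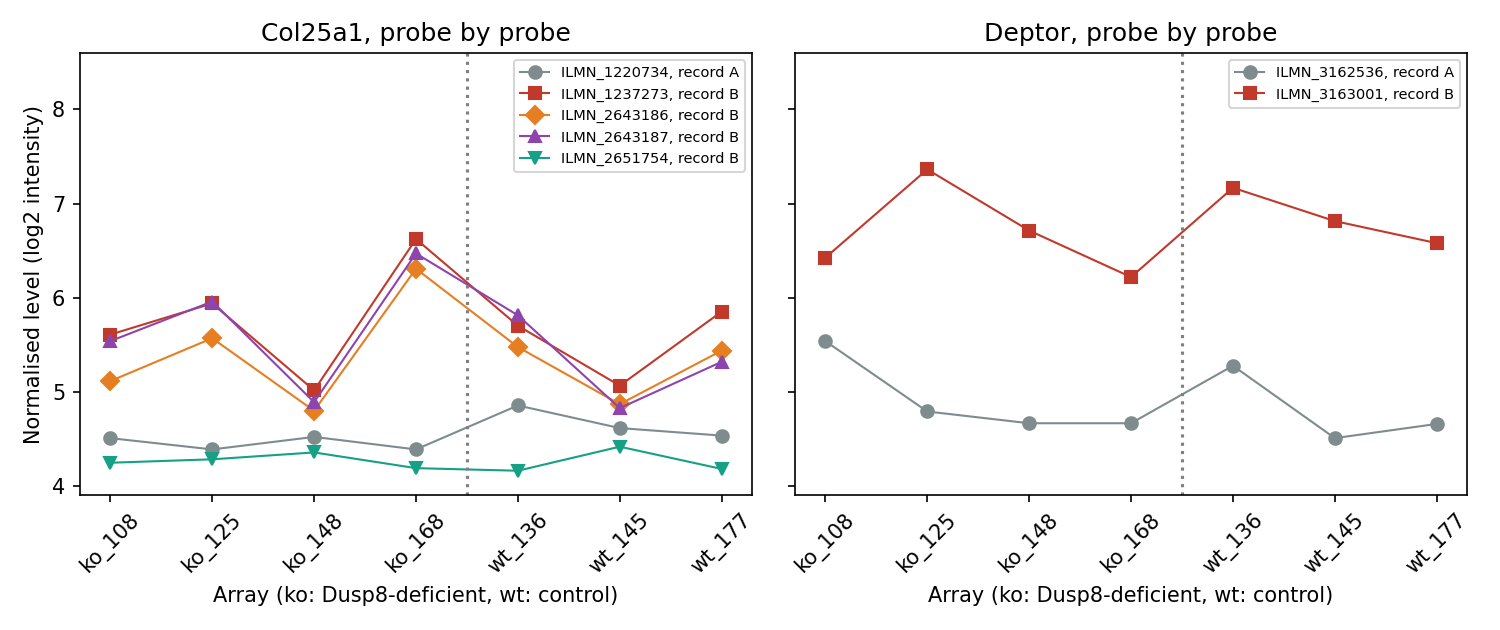
Normalised log2 intensity of each probe of Col25a1 (left) and Deptor (right) on the 7 arrays, with Dusp8-deficient arrays left of the dotted line. Letters give the transcript record of the annotation, A for the first record of a gene and B for its second. The 3 detected Col25a1 probes of record B rise and fall together and peak in ko_168 (6.31 to 6.62), whereas the Deptor probes peak in different arrays.

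The Col25a1 promoter is shown because it holds a long exact repeat (RefSeq, GRCm38.p6, chr3:130180595-130180894, plus strand, same window as above).
Col25a1: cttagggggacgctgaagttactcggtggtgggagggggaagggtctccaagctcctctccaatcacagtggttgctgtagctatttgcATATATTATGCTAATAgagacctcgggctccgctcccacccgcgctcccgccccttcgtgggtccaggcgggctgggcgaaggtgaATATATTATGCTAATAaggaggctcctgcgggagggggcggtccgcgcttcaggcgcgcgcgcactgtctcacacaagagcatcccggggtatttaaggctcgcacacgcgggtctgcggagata
Capitals mark the 16 bases ATATATTATGCTAATA, which occur 161 and 75 bases before the start. An exact repeat of at least 16 bases on the same strand that does not overlap itself was found in 2.40% of the 32851 windows. None of the other windows searched for the 9 genes held one.

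Adamts5, a secreted protease that cuts aggrecan and versican, could not be measured, at -2 to 4 units in Dusp8-deficient mice and -2 to 3 in the controls. Among its substrates and relatives, 9 of 13 listed genes were tested, with 5 higher and 4 lower, a median of 0.05 (0.14 without ko_108) and no call. Vcan, which encodes the substrate versican and is itself used as a tanycyte marker, had 17, 26, 39 and 19 units in ko_108, ko_125, ko_148 and ko_168, and 50, 47 and 31 units in wt_136, wt_145 and wt_177. On the log2 scale ko_148, at 5.68, reached just above the lowest control, at 5.67. The difference was -0.58 (SE 0.21), and -0.54 without ko_108 (limma adjusted p = 0.996 with all arrays, and 0.953 without it). Hapln2, a link protein of nodes of Ranvier made by oligodendrocytes, read 0.70 (SE 0.37), and 0.33 without ko_108.

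Deptor, an inhibitory partner of mTOR in both of its complexes, was read by 2 probes of different transcript records. The brighter, ILMN_3163001, gave 61 units in ko_108, 166 in ko_125, 98 in ko_148 and 54 in ko_168, and 133 in wt_136, 95 in wt_145 and 70 in wt_177. The controls lay inside the range of the Dusp8-deficient arrays. Deptor averaged 6.68 ± 0.50 (SD, n = 4) on this probe against a control level of 6.85 ± 0.30 (SD, n = 3), a difference of -0.17 (SE 0.29, limma adjusted p = 0.996), and -0.09 without ko_108. The dimmer probe, ILMN_3162536, gave 27, 16, 10 and 8 units against 24, 6 and 8 units in the same order of arrays. Here ko_108 was the highest, and the difference of 0.10 (SE 0.29) turned to -0.11 without it and to -0.05 without wt_145.

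Of 13 listed genes of the mTOR complexes and their regulators, 11 were tested, with 4 higher and 7 lower, a median of -0.05 (-0.17 without ko_108) and no call. Mtor, the kinase that Deptor binds, differed by -0.53 (SE 0.25) on the brighter of a pair of probes and by 0.42 (SE 0.18) on the dimmer. Telo2, which helps to assemble the kinase, was detected in no Dusp8-deficient mouse, and its control signals were only 9 to 10 units. Its log2 difference was -0.36 (SE 0.18), and at signals this low no minimum fold can be given. Neither passed (limma adjusted p = 0.996).

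Other tanycyte markers were also uncalled, and more of them were lower than higher. Of 20 listed, 14 were tested, with 4 higher and 10 lower in the Dusp8-deficient mice and a median of -0.18, beside -0.0019 over all tested probes. Without ko_108 the split was 6 higher and 8 lower, with a median of -0.09. Fgf10, a growth factor that marks tanycytes of the ventricular floor, had 24, 75, 183 and 147 units in ko_108, ko_125, ko_148 and ko_168, and 177, 213 and 117 units in wt_136, wt_145 and wt_177. The arrays ko_108 and ko_125 lay below all controls, and the other Dusp8-deficient arrays lay among them. Its log2 difference was -0.89 (SE 0.46), and -0.50 without ko_108, while its other probes read -0.90 (SE 0.33) and -0.23 (SE 0.33). Cntfr, a receptor subunit for ciliary neurotrophic factor, read -0.47 (SE 0.27), and -0.24 without ko_168. Its groups met at 8.42 and 8.43 on the log2 scale, and in deposited signal ko_148, at 336 units, lay above wt_145 and wt_177, at 321 and 307. Fndc3c1 read -0.31 (SE 0.28), ranging from -0.54 without wt_145 to -0.11 without wt_136, and Tgfb2, a growth factor, 0.47 (SE 0.26). None of these passed (limma adjusted p = 0.996). Of 13 genes of retinoic acid handling, another tanycyte function, 6 were tested and 4 were higher, with a median of 0.30. Rbp4, a retinol carrier, read 0.62 (SE 0.22, exact permutation p = 0.0571, two-sided). Every Dusp8-deficient array lay above every control for Rbp4, in signal and on the log2 scale. Of all tested probes, 5.57% had groups that did not overlap on the log2 scale, in either direction. Aldh1a1, a retinaldehyde dehydrogenase, read 0.55 (SE 0.27), or 0.84 without wt_136. Rbp4 and Aldh1a1 both had an adjusted p of 0.996 in limma.

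Array by array, the 9 genes did not move as a block. With each of the 7 tested genes centred on its own mean, ko_108 had the lowest average at -0.37 log2 units and ko_125 the highest at 0.37, while the 3 controls lay between 0.01 and 0.04. The lowest and the highest array were thus both Dusp8-deficient. Rax, Crym and Gpr50 were lowest in ko_108, Slco1c1 was highest there, and Rax, Gpr50 and the brighter Deptor probe were highest in ko_125. Over the 7 arrays, Pearson's r between pairs of the tested genes ran from -0.77 (Slco1c1 with Lhx2) to 0.78 (Crym with Gpr50), which is given as a description of arrays that share a normalisation. Signals of the 9 genes summed to 155 to 508 units in Dusp8-deficient and 268 to 339 in control arrays.

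**Figure D4:**
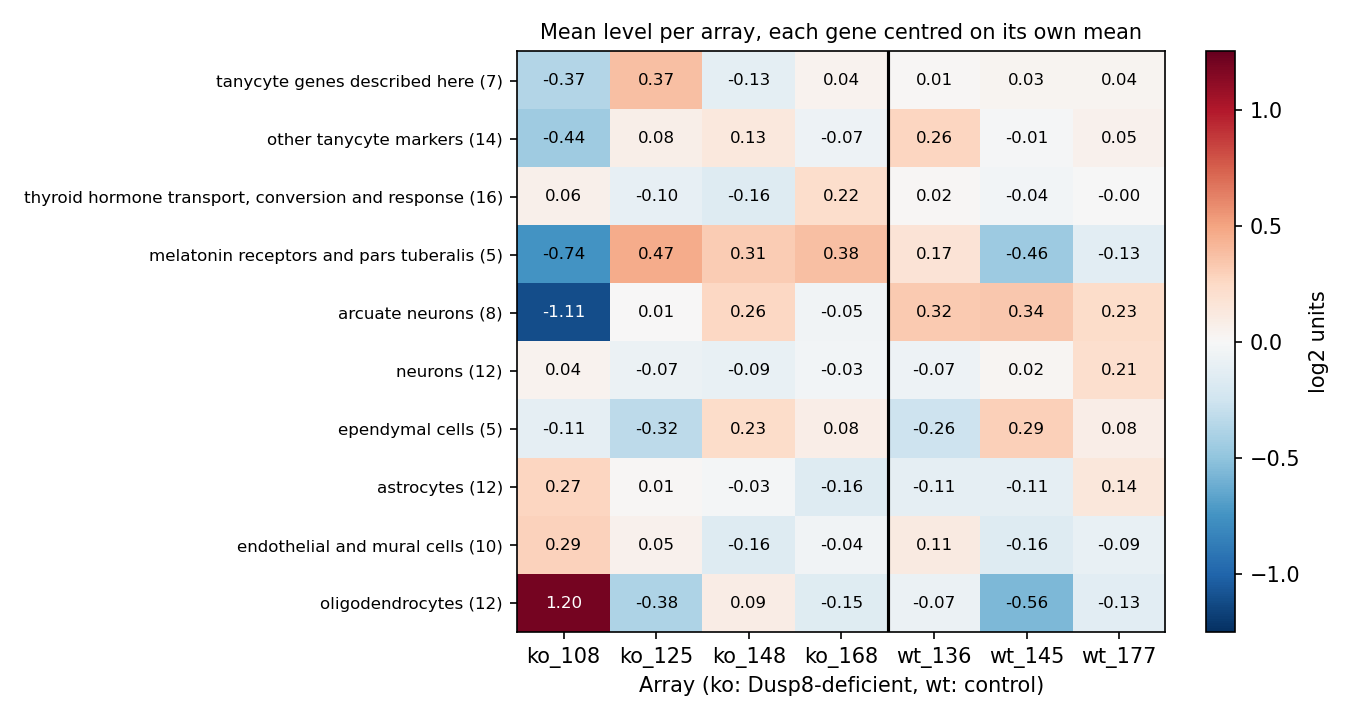
Mean normalised level of each gene list on each array, in log2 units, after each gene was centred on its own mean over the 7 arrays. Numbers of tested genes stand in parentheses. In ko_108 the tanycyte genes (-0.37), the other tanycyte markers (-0.44) and the arcuate neuron genes (-1.11) were at their lowest and the oligodendrocyte genes (1.20) at their highest.

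Markers of other cells moved with ko_108 too. In bulk tissue, fewer cells of a type and less RNA per cell cannot be told apart. The 14 other tanycyte markers averaged -0.44 in ko_108 and -0.07 to 0.26 elsewhere, the 8 arcuate neuron genes -1.11 against -0.05 to 0.34, and the 12 oligodendrocyte genes 1.20 against -0.56 to 0.09. Summed signals of the listed genes were 1905 to 2949 units in Dusp8-deficient mice and 2148 to 2949 in the controls for the other tanycyte markers. They were 1593 to 4313 and 3408 to 4707 units for arcuate neurons, and 3014 to 7486 and 2535 to 4022 units for oligodendrocytes. Among the arcuate neuron genes, 7 of 8 were lower, with Npy at -1.18 (SE 0.66), or -0.48 without ko_108, and Th at -0.57 (SE 0.35), or -0.24 without ko_108, and Slc6a3 was detected on no array. The median of that list went from -0.55 to -0.26 without ko_108. Among the oligodendrocyte genes, 11 of 12 were higher, with Gjc3 at 0.69 (SE 0.33), or 0.39 without wt_177, and Mobp at 0.89 (SE 0.49), or 0.55 without ko_108 and 0.47 without wt_145. Without ko_108 that list had 8 higher and 4 lower, and its median went from 0.49 to 0.19. The part of these cells in the tanycyte values of ko_108 was not tested.

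Markers of the cells that adjoin tanycytes gave no call. Ependymal cells, which line the rest of the ventricle, had 5 of 13 listed genes tested, with 2 higher and 3 lower, and 1 higher and 4 lower without ko_108. Tekt1 read 0.32 (SE 0.27), but 0.09 without ko_168, and Hydin -0.29 (SE 0.26), but -0.0012 without wt_145 and -0.48 without wt_136. Signals of the ependymal list summed to 329 to 781 units in Dusp8-deficient and 386 to 578 in control arrays. Of 12 astrocyte genes 8 were higher and 4 lower, with a median of 0.03, and without ko_108 this turned to 5 higher and 7 lower, with a median of -0.02. Fgfr3 read -0.61 (SE 0.29) and Slc1a2 0.59 (SE 0.29), which were -0.36 and 0.39 without wt_177. The Fgfr3 signals were only 1 to 36 units, and its other probe read -0.26 (SE 0.35). Other Slc1a2 probes read 0.14 (SE 0.29), 0.19 (SE 0.25) and 0.41 (SE 0.26). Of 4 tested choroid plexus genes 3 were higher, with Aqp1 at 0.78 (SE 0.56), from 0.44 without ko_148 to 1.29 without wt_136, and Ttr at 0.35 (SE 0.53), from -0.0041 without wt_145 to 1.04 without wt_177, and Folr1, F5, Otx2 and Sostdc1 were detected on no array. Of 9 genes of meninges and fibroblasts 7 were higher, and the median went from 0.14 to 0.30 without ko_108. Col1a2 read 0.47 (SE 0.21) and Ogn 0.50 (SE 0.23), while the other Ogn probes read 0.61 (SE 0.32) and -0.14 (SE 0.21). Of 6 microglial genes 2 were higher, with Cx3cr1 at -0.41 (SE 0.25), or -0.15 without wt_177, and Trem2 at 0.40 (SE 0.26), or 0.26 without ko_168. Among neuron genes other than Crym, Elavl4 read -0.49 (SE 0.30), or -0.23 without ko_108. None of these passed in limma.

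The genes whose levels followed the tanycyte genes most closely were found by correlation with the mean of the 7 tested members over the 7 arrays, among 9713 other genes. They were Rxfp1 (Pearson's r 0.97), Tead1 (0.97), Spcs1 (0.96), Cep126 (0.96) and Dck (0.95). With so many genes and so few arrays, values of this size are a description of these 7 arrays. For single members, Thoc3, Phf13 and Xkr4 followed Gpr50, and Ddost, Fam193b and Pdcd4 followed Rax. Neil2, Rabl2 and H4c14 followed Crym, and Scrg1, Rusc1 and Ogdh followed Slco1c1. Tmem17, Sar1a and Dus1l followed Col25a1, Olfr1349, Igsf3 and Dcx followed Lhx2, and Inpp5a, Stx3 and Sfxn3 followed Deptor, all at an r of 0.95 to 1.00. No gene was among those of more than 1 member.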

How the data were processed

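Total RNA of arcuate nucleus tissue was amplified, labelled with biotin and applied to Illumina bead arrays, per the labels' protocols and the names of the probes. The authors deposited a table of intensities that its header calls non-normalized, and its values below 0 show that a background had been subtracted. Each intensity comes with a detection p-value, per the file headers. The sources used here name neither the software nor the background method. Array columns carry a genotype prefix and a number of their own, so an array counts as 1 replicate with no number. A second table deposited by the authors holds processed intensities on a linear scale, which served only as an alternative.

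Intensities were normalised by limma's neqc (version 3.58.1, under R 4.3.3), in which the detection p-values give the background, followed by an offset of 16, quantile normalisation and log2. Detection at p below 0.05 on 3 or more of the 7 arrays was required for testing, which kept 14067 of 25697 probes. Names came from the platform annotation, in which 23978 probes had 1 gene, none had several and 1719 were unnamed here. Symbols were checked by Entrez ID against RefSeq's gene table, where 16 IDs found no match and no symbol changed. Groups were compared by lmFit and eBayes, two-sided, with Benjamini-Hochberg adjustment over all tested probes and a threshold of 0.05. Exact permutation tests enumerated the 35 possible splits, with 0.0286 as the smallest p. The limma fit and its adjustment were tested on simulated log2 levels, while normalisation, the detection filter and the permutation tests were not. Where a gene had several tested probes, the brightest stood for it in the lists. The number of arrays limits the precision.

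The members and the 16 context lists (205 genes) were chosen with earlier results of these data known. The genes named are the members, Dusp8, the 2 tested genes of smallest p in each list (5 in the lists of other tanycyte markers and of thyroid hormone genes), and the genes whose pattern over the arrays correlated best with the members. Alternatives used another background step or offset, median scaling, other filters, a robust variance trend, array weights or the authors' processed values, or left out each array.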

Additional observations from a re-analysis of the deposited data

Results flagged for a closer look

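Dixon's criterion was applied to the 4 Dusp8-deficient values of each quantity, to find any that lay apart. By chance about 1 in 20 groups is picked. Of 49 groups examined, 5 were singled out, and the 3 controls were too few to examine. Among the tanycyte genes it was the dimmer Deptor probe, at 5.54 log2 units in ko_108 against 4.66 to 4.79. Hapln2 stood at 7.68 in ko_108 against 6.12 to 6.23, and the mean signal of ko_108 was 58.0 units against 73.4 to 74.9. Klf9 was at 7.87 in ko_148 against 8.09 to 8.13, and Tekt1 at 5.99 in ko_168 against 4.97 to 5.10.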

How the results depend on the processing

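No tanycyte probe passed under any of the alternatives run, and the lowest adjusted p was 0.851 (limma). Of the 11 tested probes, 8 kept their direction in every fit over all arrays and 6 in every fit with 1 array left out. With the authors' processed values and the replicate number as a block, Col25a1 read -0.014 and -0.070 on ILMN_1237273 and ILMN_2643186, Ttr read -0.016, and no probe of the table passed. Deviations of samples with the same number correlated at -0.077, 0.078 and -0.000075, against -0.060 to 0.10 for samples with different numbers. Values centred within groups this small cannot decide whether the numbers pair samples. With array weights the dimmer Deptor probe read -0.094. Other probes of a gene read -0.22 for Col25a1 and 0.10 for Deptor. The causes of these changes were not tested. With 1 array left out, Rax ran from -0.047 to 0.19, Slco1c1 from -0.060 to 0.55, Col25a1 from -0.019 to 0.51 and from -0.10 to 0.40 on those probes, the dimmer Deptor probe from -0.11 to 0.33 and Ttr from -0.0041 to 1.04. The number of probes passing over the whole table was 1 (Dusp8), 0 without a filter on dim probes, and 0 to 1 with 1 array left out. Of 36 named genes outside the 9, each read by its brightest probe, 35 kept their direction in every fit. They were picked for the smallest p in these same data, which favours a stable direction. Another probe read the other way for Mtor (0.42) and for Ogn (-0.14). Low signal limits Rax, Crym, Slco1c1, Lhx2, the dimmer Deptor probe and the Col25a1 probe of record A, which lie near background. Dio2 and Adamts5 could not be measured.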
